A study of Mus musculus with 7 samples.

Results

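Long intergenic noncoding RNAs (lincRNAs) are transcripts without a known protein product whose genes lie in the stretches between protein-coding genes. In the deposited table of gene expression from mouse epidermis, every row whose gene type is given as lincRNA was taken, which gave 193 of the 7091 listed genes. Of these 193, 116 were lower and 77 were higher in epidermis with induced loss of ABCA12 than in control epidermis, so 60.1% were lower, against 46% of the 6450 listed protein-coding genes and 47.4% of all listed genes. The direction of each lincRNA, the largest rises and falls, the microRNAs that some of them hold and the direction of the nearest listed protein-coding gene are described here.

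The study sequenced RNA of epidermis from 4 mutant and 3 control mice. The skin was in telogen, when hair follicles rest. The mutants, called KA, were K14-CreERT;ABCA12-cKO. In them the keratin 14 promoter, active in basal keratinocytes, drives a tamoxifen-dependent recombinase that deletes a conditional allele of Abca12, the gene of a lipid transporter needed for the barrier of the outer epidermis. The controls were ABCA12-c/c mice that carried the conditional allele without CreERT, so deletion of Abca12 and activity of CreERT itself cannot be told apart. All 7 mice received tamoxifen at 8 weeks of age, 1 mg per 40 g of body weight on each of 3 days, and the epidermis was taken 2 weeks later. KA 1, KA 2 and control 2 were males, and KA 3, KA 4 and controls 1 and 3 were females. In the KA group the females are also the 2 mice of the later run of animal numbers (4876 and 4877), so that sex and run cannot be told apart there. The targeted gene was not analysed here.

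LincRNAs work in several ways. Some stay in the nucleus and build or organise nuclear bodies, some are the long precursors from which microRNAs or small nucleolar RNAs are cut, and for some the act of transcription acts on the neighbouring gene. Many are read in few cells or at low levels, and for most of those listed by a clone name or a Gm number no function is known. In the epidermis, where basal keratinocytes divide and their daughters move outwards and cornify, lincRNAs have been described that hold cells in the basal state or promote their differentiation.

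Reads of the listed genes came to between 9590718 and 12761458 per library. The table holds only genes that passed the authors' own test of KA against control (largest adjusted p-value 0.04995 in the authors' deposited table). Every count of calls below therefore repeats a selection made on these libraries, and nothing is read from how many lincRNAs passed. Values are normalized reads, the read count divided by 1 factor per library. The labels name the animals by a letter (A to C, in both groups) and a number. Neither the letters nor the sample numbers 1 to 3 are said to pair the groups. Markers of several cell types are among the listed genes. Only markers that passed the authors' test are listed, so a difference of each between the groups was given by that selection. Markers that did not pass are left out of the sums below. Summed normalized reads of the listed keratinocyte markers (4 of 8 in the table: Krt1, Krt5, Krt14 and Lor, 3 higher and 1 lower) ranged from 438816 to 522432 in controls and from 960509 to 1045940 in KA. Those of Langerhans cells (4 of 4, all higher) ranged from 18177 to 25308 against 35141 to 51419, those of T cells (4 of 5, 1 higher and 3 lower) from 1163 to 1500 against 635 to 732, and those of neutrophils and myeloid cells (2 of 5, both higher) from 30.5 to 37.9 against 264 to 497. Pecam1, the 1 of 5 endothelial markers in the table, ranged from 11.4 to 17.6 in controls and from 34.5 to 55.4 in KA, and Dct, the 1 of 5 melanocyte markers, from 102 to 205 and from 53 to 117. None of the markers of dermal fibroblasts, skeletal muscle, adipocytes or mast cells was in the table. In bulk RNA, fewer cells of a type and less RNA per cell cannot be told apart, and the part of these cell types in the lincRNA values was not tested.

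Of the listed lincRNAs, 12 contain the hairpin of a microRNA on their own strand, 18 hairpins and 32 mature microRNAs in all by RefSeq positions on GRCm38.p6. The mature sequences of those that come up below are shown here, since they are the parts of these long RNAs with a known product. They are written 5′ to 3′ with the seed, bases 2 to 8, in capitals, and come from RefSeq. The sequencing measured the long host RNA and not the mature microRNA. From H19, higher in KA, come the pair of arms of miR-675:
miR-675-5p: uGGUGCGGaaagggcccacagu
miR-675-3p: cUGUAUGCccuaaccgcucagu
From Mir17hg, also higher in KA, come the members of the miR-17-92 cluster, in which miR-17-5p and miR-20a-5p share 1 seed and miR-19a-3p and miR-19b-3p another:
miR-17-5p: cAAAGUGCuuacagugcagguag
miR-20a-5p: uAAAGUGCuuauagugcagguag
miR-18a-5p: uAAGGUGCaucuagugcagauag
miR-19a-3p: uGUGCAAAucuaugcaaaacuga
miR-19b-3p: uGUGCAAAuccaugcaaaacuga
miR-92a-3p: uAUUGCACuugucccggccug
The other hosts higher in KA were Mir9-3hg and AL805899.1, with 1 hairpin each:
miR-9-5p: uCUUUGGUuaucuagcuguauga
miR-31-5p: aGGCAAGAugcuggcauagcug
Among the hosts lower in KA were 4631405K08Rik, 6720427I07Rik, E130102H24Rik and Ftx, which hold in this order:
miR-205-5p: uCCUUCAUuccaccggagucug
let-7d-5p: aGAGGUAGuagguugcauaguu
miR-101a-3p: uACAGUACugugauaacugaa
miR-374b-5p: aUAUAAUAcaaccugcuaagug

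The lincRNA reads as a whole made up a smaller share of the counted reads in KA. They were 0.742%, 0.743% and 0.752% of the reads of all listed genes in controls 1, 2 and 3, and 0.326%, 0.345%, 0.5% and 0.315% in KA 1, 2, 3 and 4. The groups did not overlap, and KA 3 lay closest to the controls. Neat1 alone gave 61.4% to 65.5% of all lincRNA reads in the controls and 39.9% to 56.9% in KA. With Neat1 set aside, the other lincRNAs took 0.274% ± 0.0161 (SD, n = 3) of listed reads in controls and 0.195% ± 0.0164 (SD, n = 4) in KA, again without overlap. These are shares of the reads of listed genes and not of whole libraries.

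**Figure D1:**
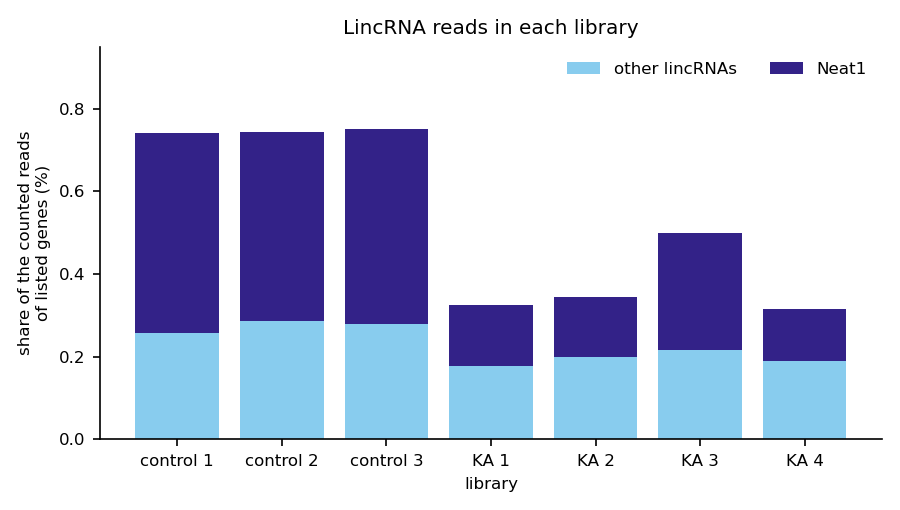
Share of the counted reads of all listed genes that fell in lincRNAs (vertical axis, percent) in each of the 7 libraries, split into Neat1 (dark) and the other lincRNAs (light). The 3 control libraries reach 0.742% to 0.752%, and the KA libraries 0.315% to 0.5%, with KA 3 the highest of them.

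Most listed lincRNAs were low. Their median over the 7 libraries was 24 normalized reads, against 548 for listed protein-coding genes, 152 of 193 had a mean under 100, and 5 reached 1000. A filter on low counts left 144 lincRNAs for the test, and all 144 passed at 0.05 (quasi-likelihood test of edgeR, p-values adjusted by the Benjamini-Hochberg method across 6749 genes), as did 100% of those genes to 3 digits. Of the 144, 56 rose (38.9%, where 52.7% of all tested genes rose) and 88 fell (61.1%, where 47.3% of all tested genes fell). Changes of at least 1 on the log2 scale were called for 43 rises and 61 falls (background 20.5% and 20.8% of tested genes). The 49 lincRNAs below the filter were higher in 21 cases and lower in 28. The higher lincRNAs had a median log2 fold change of 2.17 at a median level of 16 normalized reads, and the lower ones -1.55 at 31.3. The median log2 fold change was -0.82 over all 193 lincRNAs and -0.78 over the 144 tested, where that of all tested genes was 0.36. A pair of other ways to set the library factors from the listed genes themselves lowered log2 fold changes by a median of 0.14 (TMM) and 0.17 (RLE). With TMM factors 49 lincRNAs rose and with RLE factors 47, while 88 fell with either.

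For 173 of the 193 lincRNAs (89.6%), all KA libraries lay on one side of all controls, 65 above and 108 below; the same was true of 93.3% of all listed genes. The 20 whose groups overlapped include Pvt1, Bvht, Snhg6, Snhg20, AI480526 and Gm26532, described below. In 10 of the higher lincRNAs no control library held a read, with lower bounds between 3.71-fold and 23.1-fold against a floor of 3 counts over the group. In 12 of the lower ones no KA library held a read, with bounds between 5.83-fold and 21-fold. The largest of these bounds were those of A530065N20Rik (0 reads in the controls, mean 21.1 ± 10.8 in KA, SD, n = 4) and of Gm43608 (16.6 ± 0.843 in controls, SD, n = 3, and 0 in KA).

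The share of lower lincRNAs varied with their level. Among lincRNAs with a mean of at least 100 normalized reads, 31 of 41 were lower in KA (75.6%), where 44.4% of protein-coding genes at that level were. Between 30 and 100 reads the shares were 65.9% (29 of 44) and 55.5%, between 10 and 30 reads 46.3% (25 of 54) and 51.1%, and under 10 reads 57.4% (31 of 54) and 45.7%. Between 10 and 30 reads the order was thus the other way round. Other noncoding types in the table were lower still more often, with 78.2% of 110 antisense transcripts, 68.5% of 73 processed transcripts and 72.6% of 62 transcripts awaiting experimental support, whereas 36% of 75 processed pseudogenes were lower. The table was selected on this contrast, so these shares are descriptions without a test.

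**Figure D2:**
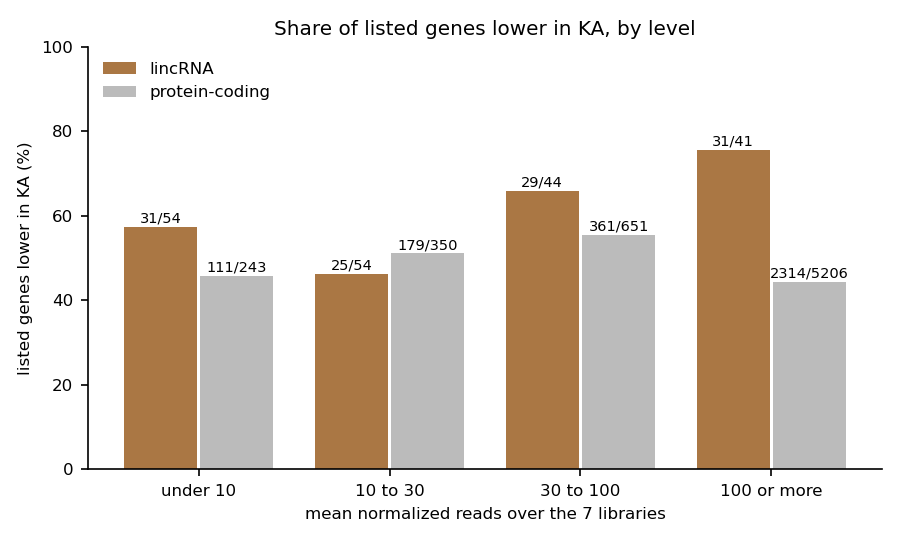
Share of listed genes lower in KA (vertical axis, percent, from 0) by mean normalized reads over the 7 libraries, for lincRNAs and protein-coding genes, with the number lower over the number listed above each bar. The lincRNA bar is the higher of each pair except between 10 and 30 reads, and it reaches 75.6% at 100 reads or more.

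Among lincRNAs with a mean of at least 20 normalized reads and no overlap of the groups, H19 (chr7:142575529-142578143, minus strand, GRCm38) rose most. Below that level the fitted log2 fold change of A530065N20Rik was larger, 7.43 at a mean of 12 normalized reads. H19 is an imprinted RNA read from the maternal chromosome, abundant in the embryo and silenced in most tissues after birth. Its raw counts were 1, 0 and 2 in controls 1, 2 and 3 and 54, 30, 19 and 39 in KA 1, 2, 3 and 4. In normalized reads these were 0.947, 0 and 1.6 against 53.4, 33.8, 19.8 and 40.5. Every KA library stood far above the highest control, and KA 3 was the lowest of the 4. The ratio of the groups was 40.6, with a 95% interval for counting error of 13.6 to 199, since the controls held only 3 counts in all. The fitted log2 fold change was 5.17 (SE 0.67, edgeR adjusted p = 0.000101).

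Gm47316 (chr13:39877035-39884381) rose from very few reads to a level among the upper lincRNAs. It had 14.2, 11.3 and 4.01 normalized reads in the controls and 283, 281, 237 and 224 in KA, with a log2 fold change of 4.72 (SE 0.35, edgeR adjusted p = 5.21e-06). The 4 KA libraries differed among themselves by far less than they did from the controls. Gm38416 (chr8:117681622-117693198) had 2.84, 4.12 and 8.02 in the controls and 51.4, 56.3, 63.7 and 51.9 in KA (log2 fold change 3.42, SE 0.40, edgeR adjusted p = 6.06e-05). Its neighbour Gm31717, read from the opposite strand, was higher as well, with 1 count in the controls and 18 in KA (ratio 15.4, 95% counting interval 2.44 to 643). Gm28515 (chr8:91907565-91913066) had 12.3, 6.19 and 12 in the controls and 144, 81.1, 42.8 and 104 in KA. The KA values of Gm28515 were spread over a wide range, yet its lowest, in KA 3, still lay above the highest control. The other large rises were Gm47128 (log2 fold change 3.54), E230014E18Rik (3.05), Gm48972 (2.45), C430042M11Rik (2.43), G930009F23Rik (2.33) and Gm44751 (2.07). No function of these is known from their labels.

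The largest falls were led by AC165961.3. This lincRNA (chr16:94011441-94012236) had 57.8, 68 and 72.2 normalized reads in the controls and 0, 0, 0 and 1.04 in KA, where a single read in KA 4 was all that was counted. The ratio of controls to KA was 253, with a 95% counting interval of 45 to 10046, and the fitted log2 fold change was -7.42 (SE 0.59, edgeR adjusted p = 7.96e-06), or -9.08 without KA 4. Gm12436 (chr4:48898593-48963237) had 277, 221 and 232 in the controls and 5.94, 7.89, 28.2 and 17.6 in KA (log2 fold change -4.02, SE 0.40, edgeR adjusted p = 2.55e-05). Its KA libraries held a small part of the control reads, KA 3 the most. Gm46401 (chr13:5915793-6014285) had 60.6, 96.9 and 116 in the controls and 2.97, 1.13, 6.27 and 4.15 in KA, which is a log2 fold change of -4.60 (SE 0.44, edgeR adjusted p = 2.16e-05).

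Gm15675 (chr1:130429781-130437191) had 293, 395 and 465 normalized reads in the controls and 21.8, 33.8, 81.5 and 56.1 in KA, which is a log2 fold change of -2.99 (SE 0.37, edgeR adjusted p = 9.65e-05). The lowest control stood well above the highest KA library, which was KA 3. The remaining large falls by the same rule were Gm48843 (-3.30), Gm10782 (-3.27), Gm13667 (-3.20), Gm26797 (-2.98), AC130815.1 (-2.76) and 2310015K22Rik (-2.61). In Gm10782 the KA values were 0, 2.25, 3.13 and 29.1, and KA 4 made the fall smaller. Without KA 4 the log2 fold change of Gm10782 was -5.49. Without KA 3, Gm13667 went to -3.82.

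**Figure D3:**
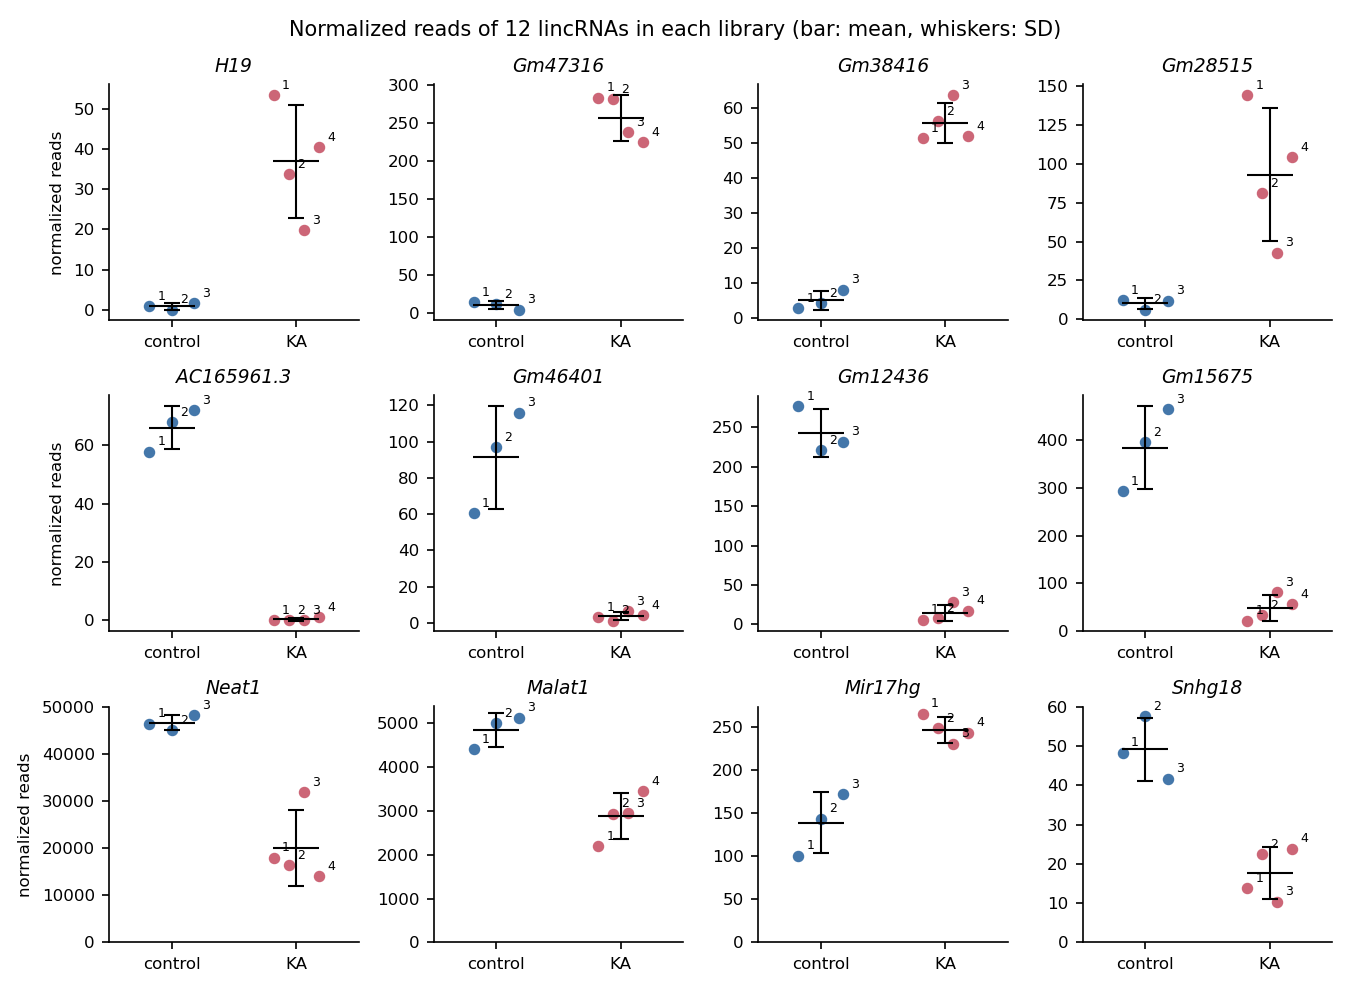
Normalized reads (vertical axis, linear, a separate scale in each panel) of 12 lincRNAs in the control and KA libraries. Points are libraries with their sample number, horizontal bars are means and whiskers are SDs. The top row rose, the middle row fell, and in all 12 panels the KA libraries lie on one side of the controls.

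Among the lincRNAs with a known role, the pair with the most reads, Neat1 and Malat1, fell. Neat1 (chr19:5824708-5845478) builds paraspeckles, nuclear bodies that hold back RNAs and proteins. It had 46432, 45093 and 48284 normalized reads in the controls and 18023, 16475, 31849 and 14022 in KA. All KA libraries were lower, and KA 3 stood apart from the other 3 towards the controls. Means were 46603 ± 1602 (SD, n = 3) and 20092 ± 8009 (SD, n = 4), with a log2 fold change of -1.21 (SE 0.25, edgeR adjusted p = 0.00144). Malat1 (chr19:5795690-5802672), the neighbour of Neat1 and an RNA of nuclear speckles, had 4403, 4994 and 5122 in the controls and 2195, 2932, 2947 and 3442 in KA. In Malat1 it was KA 4 and not KA 3 that lay closest to the controls, and the log2 fold change was -0.75 (SE 0.15, edgeR adjusted p = 0.00121).

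Per kilobase of annotated length, where levels of different genes can be compared, the order of the 5 highest lincRNAs was Gm10076 (9132 normalized reads per kilobase), Neat1 (1514), Gm26532 (1279), Tmem250-ps (679) and Malat1 (533). Gm10076 rose, from 1416, 3014 and 2582 to 4814, 4841, 4509 and 3371 (log2 fold change 0.91, SE 0.24, edgeR adjusted p = 0.0053). Its transcript matched that of Rpl41, a gene of the ribosome, at 99.5% of bases over 383 of its 384 bases, so that its reads cannot be told apart from those of a ribosomal protein gene. Tmem250-ps rose from 1324 ± 147 (SD, n = 3) to 1956 ± 203 (SD, n = 4). The other members of this group, Neat1, Malat1 and Gm26532, fell.

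Snhg genes are named as hosts of small nucleolar RNAs, most of which guide the chemical modification of ribosomal RNA. Which small RNAs the listed ones hold was not examined here. Of the 4 in the table, 3 fell and 1 rose. Snhg18 had 48.3, 57.7 and 41.7 normalized reads in the controls and 13.8, 22.5, 10.4 and 23.9 in KA (log2 fold change -1.47, SE 0.35, edgeR adjusted p = 0.00309). Snhg10 fell by 1.16 and Snhg20 by 0.79 on the log2 scale, and Snhg6 rose by 0.59. The calls of the latter 3 each rested on 1 control library: without control 3, Snhg10 was at -0.97 (edgeR adjusted p = 0.0628) and Snhg20 at -0.54 (edgeR adjusted p = 0.0813), and without control 1, Snhg6 was at 0.42 (edgeR adjusted p = 0.057).

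Other members with a known role moved in both directions. Pvt1, a neighbour of the Myc oncogene, had 7.57, 29.9 and 24.1 normalized reads in the controls and 57.4, 63.1, 47 and 22.8 in KA, so that KA 4 lay within the controls (log2 fold change 1.21, SE 0.48, edgeR adjusted p = 0.0291). Its adjusted p in edgeR was 0.0997 without control 1, 0.0582 without KA 1 and 0.0735 without KA 2, and it was 0.0508 with TMM and 0.0584 with RLE factors. Bvht, described in heart development, had 17, 35.1 and 22.5 in the controls and 75.2, 66.5, 86.7 and 33.2 in KA, again with KA 4 inside the control range (log2 fold change 1.4, edgeR adjusted p = 0.0066). Ftx, an RNA of the region that controls X inactivation, fell from 175, 161 and 162 to 95, 95.8, 94 and 105 (log2 fold change -0.77, SE 0.18, edgeR adjusted p = 0.00274). The values of Ftx were tight within both groups, with males and females mixed in each.

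Of the 12 lincRNAs that hold microRNA hairpins, 4 were higher and 8 lower in KA. Among the higher ones, H19 with miR-675 is described above. Mir17hg (chr14:115042879-115046727), from which the miR-17-92 cluster is cut and which is best known as a target of Myc in dividing cells, had 101, 144 and 172 normalized reads in the controls and 266, 249, 231 and 244 in KA. The KA values lay close together and above all controls (log2 fold change 0.83, SE 0.21, edgeR adjusted p = 0.00375). AL805899.1 holds miR-31, a microRNA raised in psoriasis and in wounded epidermis. It had 1.89, 4.12 and 3.21 in the controls and 14.8, 28.2, 17.8 and 3.11 in KA, where KA 4 lay within the controls (log2 fold change 2.33, SE 0.71, edgeR adjusted p = 0.00992). Mir9-3hg, the host of a copy of the neural microRNA miR-9, had no read in the controls and 4.95, 10.1, 6.27 and 3.11 in KA, which is at least 6.57-fold higher.

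Among the lower hosts was that of a microRNA typical of epithelium. 4631405K08Rik (chr1:193507238-193510174) holds miR-205, a microRNA of keratinocytes and other stratified epithelia. It had 440, 497 and 426 normalized reads in the controls and 271, 251, 339 and 198 in KA, without overlap (log2 fold change -0.78, SE 0.18, edgeR adjusted p = 0.00293). 6720427I07Rik, which holds let-7d, went from 82.4, 79.4 and 110 to 26.7, 55.2, 56.4 and 44.6 (log2 fold change -0.99, SE 0.30, edgeR adjusted p = 0.00929). E130102H24Rik, which holds miR-101a, went from 56.8, 48.5 and 40.9 to 11.9, 13.5, 12.5 and 7.27, the largest fall among the hosts (log2 fold change -2.10, SE 0.33, edgeR adjusted p = 0.000336). Ftx and Snhg10, Snhg20, Gm16863 and 2900076A07Rik complete the lower hosts, and these hold miR-374b and miR-421, miR-3069, miR-6516, miR-7680 and miR-1839.

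**Figure D4:**
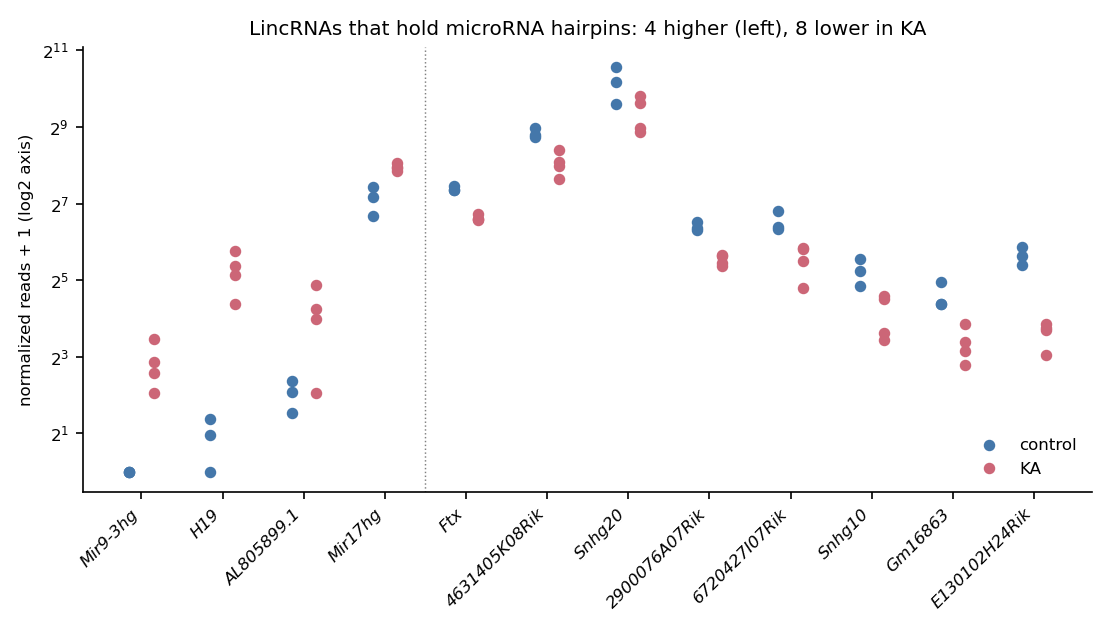
Normalized reads plus 1 (vertical axis, log2 scale) of the 12 lincRNAs that hold a microRNA hairpin, in control (left of each pair) and KA libraries. To the left of the dotted line are the 4 that were higher in KA and to its right the 8 that were lower; AL805899.1 and Snhg20 are the ones whose groups overlap.

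Gm26532 (chr8:84208920-84209609, plus strand) lies next to the hairpins of the miR-23a, miR-27a and miR-24-2 cluster, on the same strand, downstream of the first pair and overlapping the hairpin of miR-24-2 by a few bases at its start. Between the hairpins of miR-23a and miR-27a and the start of Gm26532 are 327 and 161 bases. The mature forms of the first pair are shown, and their seeds are alike but not identical:
miR-23a-3p: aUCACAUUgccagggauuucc
miR-27a-3p: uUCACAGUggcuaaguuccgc
Gm26532 had 864, 1125 and 1349 normalized reads in the controls and 668, 703, 978 and 489 in KA, with KA 3 inside the control range (log2 fold change -0.65, SE 0.22, edgeR adjusted p = 0.017). Without control 3 its edgeR adjusted p was 0.0736, at a log2 fold change of -0.49. The table also lists the hairpin genes Mir23a and Mir27a themselves, and reads over Mir23a went from 123 ± 19.7 (SD, n = 3) to 57.1 ± 20.4 (SD, n = 4) and over Mir27a from 74.8 ± 11.7 to 37.5 ± 9.47. Both fell (log2 fold change -1.11 and -1, edgeR adjusted p = 0.00533 and 0.00674). In libraries of long RNA such reads come from the precursor and not from the mature microRNA.

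H19 belongs to the imprinted genes, of which only the maternal or the paternal copy is read. A list of 56 names held imprinted genes and genes that act on imprints (Zfp57 and Trim28). The table holds 15 of them, 8 higher and 7 lower in KA, and of the 14 tested 7 rose and 7 fell. That split is near that of all tested genes (52.7% rose and 47.3% fell). The median log2 fold change over the 15 was 0.32, where that of all tested genes was 0.36. On the same chromosome as H19, in the imprinted region beyond it, Phlda2, a brake on placental growth, rose from 13.6 ± 5.12 (SD, n = 3) to 115 ± 24.7 normalized reads (SD, n = 4; log2 fold change 3.05, edgeR adjusted p = 4.48e-05). Slc22a18 rose there as well (0.93), and Ascl2, a transcription factor, fell (-0.85). Elsewhere Rasgrf1 (-3.28), Asb4 (-3.87) and Grb10 (-3.05) fell and Igf2r rose (0.61). Of the genes that act on imprints, Zfp57 fell (-2.33) and Trim28 rose (0.32). The rise of H19 was the largest among the listed imprinted genes.

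The direction of each lincRNA was then set beside that of the nearest protein-coding gene in the table. Over all 193, 124 (64.2%) had the direction of that gene, where 59.6% of listed protein-coding genes had the direction of their own nearest listed neighbour. Pairs were split at a gap of 50 kb. Of the 96 lincRNAs with a gap of up to 50 kb, 70 (72.9%) went with their neighbour, against 61.6% of protein-coding genes at that distance, and of the 97 beyond it 54 did (55.7%, the same share as in protein-coding genes, 55.7%). In narrower classes there was no steady order: all 8 overlapping pairs went the same way, 69.4% of 36 with a gap of up to 5 kb, 71.2% of 52 at 5 to 50 kb, 55.3% of 85 at 50 to 500 kb and 58.3% of 12 beyond. Across the 96 nearer pairs the log2 fold changes of lincRNA and neighbour were related with a Pearson r of 0.56 and a Spearman rho of 0.57, and across the 97 farther pairs with 0.19 and 0.17. For the 4166 protein-coding pairs within 50 kb the values were 0.41 and 0.28. These are correlations across genes within the same libraries, and genes are not independent replicates. Several lincRNAs share a neighbour (180 different genes for 193 lincRNAs), and a gene can be absent from the table because it did not pass the authors' test. For 92 of the 193 lincRNAs the nearest annotated protein-coding gene was itself listed. For the others the gene compared was not the nearest annotated one.

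Within 50 kb, the share can be split by the direction of the lincRNA. Of 31 higher lincRNAs, 26 had a higher neighbour (83.9%), and of 65 lower ones, 44 had a lower neighbour (67.7%), where protein-coding genes at that distance gave 65.6% and 56.6%. By orientation, 22 of 31 divergent pairs (71%), 32 of 44 pairs on the same strand (72.7%) and 8 of 13 convergent pairs (61.5%) went the same way. On the same strand, 17 of 22 lincRNAs downstream of the gene (77.3%) and 15 of 22 upstream of it (68.2%) did. All 8 lincRNAs that overlap their neighbour on the opposite strand went with it, against 63.2% of such protein-coding pairs. Whether the reads were counted by strand is not given in the sources used here, so where exons overlap, reads of the lincRNA and of its neighbour cannot be told apart. This holds for Gm17552 with Carns1, Gm26888 with Tbc1d16, 9330175E14Rik with Nlrc5, A930024N18Rik with Dll1, Gm45619 with Lin7b and Gm16755 with Mrpl12. Gm26518, which spans Prr13, shares exon bases with Pcbp2 instead, and AC154806.1, which spans Ear1, shares exon bases with no protein-coding gene. Leaving out the lincRNAs with an overlapping exon (15) or a near-identical copy (3) gave the same share over all distances, 64.2%. That does not show what the share within 50 kb would be without them.

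**Figure D5:**
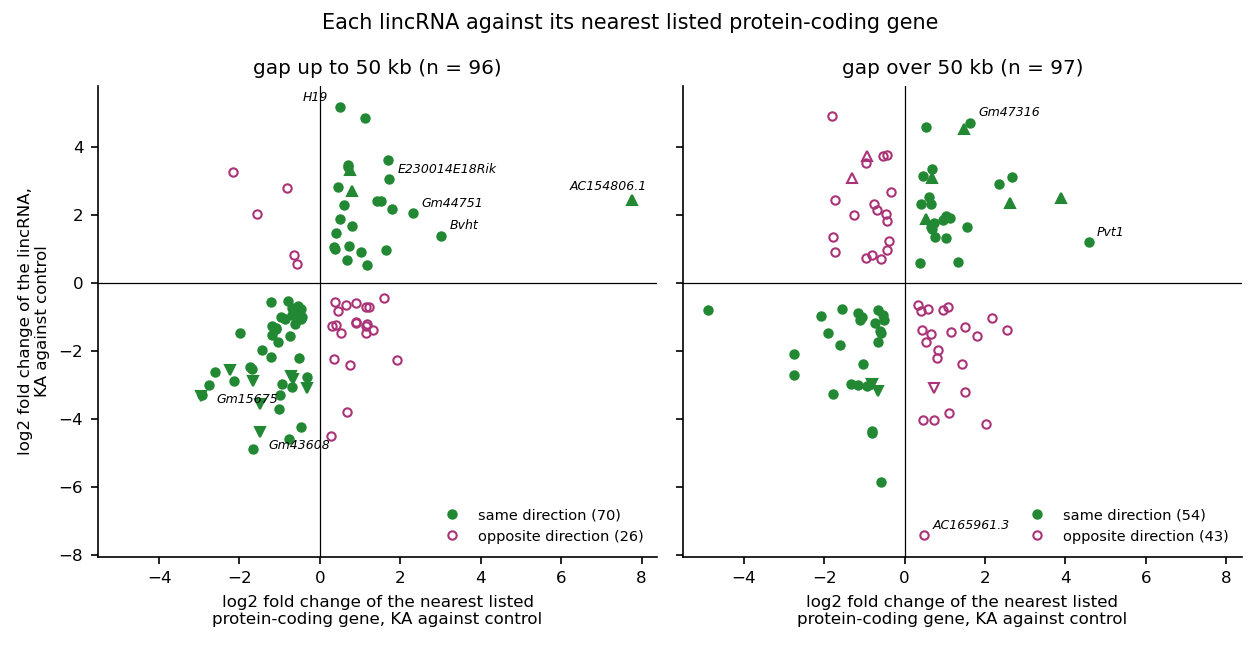
Log2 fold change, KA against control, of each lincRNA (vertical axis) against that of its nearest listed protein-coding gene (horizontal axis), for gaps up to 50 kb (left, n = 96) and over 50 kb (right, n = 97). Filled green symbols are pairs in the same direction, open purple ones pairs in opposite directions, and triangles are lower bounds for the 22 lincRNAs with no read in 1 group; 70 of 96 pairs go the same way on the left and 54 of 97 on the right.

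Several close pairs changed together by large amounts. Gm15675, which fell by 2.99, lies 1836 bases from Cd55, on the same strand. Cd55, a membrane protein that protects cells from complement, had 1713, 1739 and 1752 normalized reads in the controls and 124, 184, 333 and 375 in KA, which is a log2 fold change of -2.77 (SE 0.32, edgeR adjusted p = 0.000101). Gm44751, annotated with 1 exon, lies 590 bases downstream of Ctsc, the gene of the protease cathepsin C, on the same strand. Whether its reads come from longer Ctsc transcripts was not tested. Gm44751 had 7.57, 5.15 and 8.82 in the controls and 36.6, 34.9, 23 and 29.1 in KA. Ctsc went from 720, 670 and 483 to 4863, 2768, 1967 and 2817. The log2 fold changes of Gm44751 and Ctsc were 2.07 and 2.32. E230014E18Rik (3.05) and Ckap4 (1.73), a receptor of the cell membrane and endoplasmic reticulum, rose side by side, as did C430042M11Rik (2.43) and Haao (1.52), an enzyme of tryptophan breakdown. Gm46401, one of the largest falls, lies 45399 bases from Klf6, a transcription factor that fell by 0.77.

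In 7 groups, lincRNAs (15 members in all) lie within 50 kb of each other, and in each of the 7 the members went the same way. Some members overlap on opposite strands: D830036C21Rik with Gm44698, E130102H24Rik with 0610043K17Rik, and AI480526 with Gm38102 and 4932422M17Rik. Whether reads were counted by strand is not given, so shared reads in these groups cannot be told apart. Besides Neat1 with Malat1, Gm43607 and Gm43608 lie next to F3, the gene of tissue factor that starts blood clotting. Gm43608 had 16.1, 17.5 and 16 normalized reads in the controls and none in any KA library, which is at least 21-fold lower, Gm43607 was at least 11.7-fold lower, and F3 fell from 1245, 1081 and 1238 to 437, 413, 570 and 284 (log2 fold change -1.48). D830036C21Rik and Gm44698 lie 10066 and 23078 bases from Fosb, a subunit of the AP-1 transcription factor. Their nearest annotated protein-coding gene is Ercc1, 2263 and 7123 bases away, which is not listed. D830036C21Rik had 23.7, 32 and 24.9 in the controls and 0, 0, 0 and 3.11 in KA (ratio of controls to KA 33.8, 95% counting interval 11.2 to 167), and Fosb went from 11113, 10924 and 10405 to 2931, 5123, 3072 and 2445 (log2 fold change -1.67). At F3 and Fosb no KA library reached the level of a control.

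Where a lincRNA and a gene start close together in opposite directions, the bases between the starts lie upstream of both. There were 13 such pairs with a gap under 1 kb, of which 8 went the same way (61.5%, against 69.8% of protein-coding pairs of this kind). Bases from between the starts are shown for 3 of them, a pair in which the lincRNA and a strongly changed gene fell, another in which both were lower, and a pair that went apart. Bases come from the RefSeq promoter table on GRCm38.p6 (92 of the 193 lincRNAs matched an entry), are written 5′ to 3′ on the plus strand, and leave out the transcribed part of either gene. Only bases that the table's entry covers upstream of its own start are shown, and that start can differ from the listed one. They are 95 of the 331 bases between Gm17501 and Cyr61, 146 of the 167 between 4732414G09Rik and Camkk1 and 250 of the 409 between Snhg10 and Glrx5. Capitals mark matches, on either strand, to a TATA box (TATAAA), to the element known as the CCAAT box and to a GC box (GGGCGG), none of which overlap. The AP-1 element TGANTCA and the CArG box were also searched and not found in these windows.
Gm17501 and Cyr61, chr3:145649982-145650076: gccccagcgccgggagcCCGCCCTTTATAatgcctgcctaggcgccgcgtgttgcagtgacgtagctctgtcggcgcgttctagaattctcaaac
4732414G09Rik and Camkk1, chr11:73018842-73018987: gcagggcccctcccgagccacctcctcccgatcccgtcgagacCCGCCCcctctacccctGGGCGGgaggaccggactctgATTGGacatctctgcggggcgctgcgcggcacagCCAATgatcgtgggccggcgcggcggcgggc
Snhg10 and Glrx5, chr12:105032368-105032617: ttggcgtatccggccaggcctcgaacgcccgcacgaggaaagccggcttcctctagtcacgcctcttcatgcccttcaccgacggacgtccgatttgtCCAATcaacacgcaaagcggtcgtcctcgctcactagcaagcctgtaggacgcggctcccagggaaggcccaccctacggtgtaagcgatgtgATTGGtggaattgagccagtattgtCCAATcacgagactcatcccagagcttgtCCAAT

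Gm17501 had 37.9, 33 and 38.5 normalized reads in the controls and 8.9, 16.9, 18.8 and 8.31 in KA, which is a log2 fold change of -1.46 (SE 0.37, edgeR adjusted p = 0.00422). Cyr61, a secreted matrix protein and a target of the YAP pathway, went from 4614, 4904 and 5755 to 1071, 1690, 1289 and 1076 (log2 fold change -1.99, SE 0.17, edgeR adjusted p = 1.19e-05). Both genes fell in every KA library, at levels far apart. The printed window of 95 bases holds a TATAAA and a GGGCGG side by side, both on the minus strand, that of Cyr61. Of 32851 promoters in the table, 5.35% have TATAAA and 24.1% GGGCGG in the 95 bases before the start.

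4732414G09Rik, too low for the test, had 8.52, 27.8 and 24.9 normalized reads in the controls and 0, 5.63, 6.27 and 2.08 in KA. Camkk1, a calcium-dependent kinase, fell from 2535, 2038 and 1764 to 479, 573, 866 and 717 (log2 fold change -1.68, SE 0.20, edgeR adjusted p = 6.75e-05). Their window of 146 bases holds 2 matches to CCAAT and 2 to GGGCGG, 1 on each strand for both, and 24% and 28.4% of promoters have at least 1 of these in a window of that length. The Snhg10 and Glrx5 window of 250 bases holds 4 matches to CCAAT, 3 of them on the plus strand, that of Glrx5, and 33.8% of promoters have at least 1. Snhg10 went from 36.9, 27.8 and 45.7 to 9.89, 11.3, 21.9 and 22.8, while Glrx5, which serves the assembly of iron-sulfur clusters, went from 1317, 1780 and 1808 to 3339, 3618, 3112 and 2262 (log2 fold change 0.91, SE 0.18, edgeR adjusted p = 0.00101). The pair thus went apart. The matches describe the letters of these windows only.

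Other close pairs also went in opposite directions, and in the 8 nearest of them the lincRNA was the one that was lower. Farther out, at 3579 bases, Lockd rose by 0.83 on the log2 scale while Cdkn1b, a brake on the cell cycle, fell (-0.64). Snhg18 fell while Sema5a, a guidance protein that starts 148 bases away, rose by 0.53. A430046D13Rik had 208, 240 and 322 normalized reads in the controls and 73.2, 113, 172 and 93.4 in KA (log2 fold change -1.19, SE 0.28, edgeR adjusted p = 0.00302), and Myl6b, a myosin light chain 679 bases away, went from 17, 17.5 and 17.6 to 22.8, 58.6, 41.8 and 33.2. Fam120aos had 296, 278 and 272 in the controls and 105, 157, 156 and 221 in KA (log2 fold change -0.82), and Fam120a rose by 0.44. Gm12319, on the strand of Pfn1 and 97 bases from it, fell by 1.14 while Pfn1, the actin-binding profilin, rose by 0.91. The call of Gm12319 ended without control 1 (log2 fold change -0.91, edgeR adjusted p = 0.0691).

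The 3 remaining opposite pairs rested on single libraries. AI480526 lies 1031 bases from Rhof and 527 bases from Setd1b, which is not listed. AI480526 had 439, 388 and 423 normalized reads in the controls and 163, 186, 424 and 242 in KA, so that KA 3 was at the control level. Its log2 fold change was -0.71 (edgeR adjusted p = 0.0318) with all libraries and -1.08 (edgeR adjusted p = 0.000492) without KA 3, and its call ended when any other library was left out (edgeR adjusted p from 0.0522 without control 2 to 0.0868 without control 1). The nearby Gm38102 and 4932422M17Rik, which lie within its bounds on the opposite strand, fell too (-1.46 and -1.25), while Rhof, a small GTPase, went from 54, 52.6 and 68.2 to 157, 139, 117 and 106. Gm26664 near Nacc1 fell by 1.25 on the log2 scale, with KA 3 (36.6) above control 1 (31.2), and its edgeR adjusted p was 0.093 without control 2 at a log2 fold change of -0.87. Gm43672 near Tbl1xr1 fell by 0.56 and lost its call without control 2 (edgeR adjusted p = 0.0866), control 3 (0.0679) or KA 2 (0.058).

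KA 3 and KA 4, the female mutants, were most often the KA libraries nearest to the controls. Among the 104 lower lincRNAs with no tie, KA 3 was nearest in 51%, KA 4 in 31.7%, KA 2 in 11.5% and KA 1 in 5.77%. Protein-coding genes that were lower gave 46.7%, 33.6%, 12.9% and 6.8% in that order. Among the 77 higher lincRNAs KA 4 was nearest in 33.8%, KA 3 in 32.5%, KA 1 in 20.8% and KA 2 in 13%, while among the higher protein-coding genes KA 3 was nearest in 50.5%, KA 4 in 32.4%, KA 2 in 12.2% and KA 1 in 4.96%. With females alone, 2 KA against 2 controls, 32 lincRNAs rose and 55 fell, and with the earlier run of animal numbers alone, also 2 against 2, 51 rose and 83 fell. Whether the female and male mutants differ was not tested.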

How the data were processed

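RNA-seq of epidermis from 4 KA and 3 control mice was analysed from 1 table. The authors deposited read counts per gene and normalized reads (a signal scale, each count over 1 size factor per sample). Per the file headers the authors also gave a mean signal, a log2 fold change, test scores, p-values and adjusted p-values. The submitters' processing notes name mm10, fastp, STAR 2.6.1d, featureCounts 1.5.0-p3 and DESeq2 1.40.2; the strand setting is not given in the sources used here.

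Counts were fitted with edgeR 4.0.16 (R 4.3.3): library sizes set by the authors' size factors, filterByExpr by group (342 genes left out), robust quasi-likelihood test, Benjamini-Hochberg adjustment over 6749 genes. Standard errors were taken from the F statistic. Means and SDs are of normalized reads. On simulated data the fit called 86 of 100 genes changed by 1 and 100 of 100 changed by 2 (log2), with 10 false calls among 6549 unchanged genes. The changed genes were drawn from all 6749, and every gene had the same spread between replicates. These rates are therefore not those of the lincRNAs, most of which are low.

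Members and lists were chosen with earlier results of these data known. Named lincRNAs (50) were the 10 largest rises and falls with at least 20 mean normalized reads and no overlap, the 5 highest per kilobase, the 8 nearest to a same-direction and to an opposite-direction neighbour within 5 kb, known names and those nearest the threshold; other microRNA hosts, grouped lincRNAs and promoter windows were chosen after their values were seen. Gaps use the table's positions, and 188 of 193 positions equal those of GENCODE M21 (GRCm38). Copies were sought with blastn 2.17.0 at 95% identity. Alternatives were TMM and RLE factors, other filters, DESeq2 1.42.0, sex as a covariate, a block by sample number, each replicate left out, females or 1 run of animals alone, other thresholds and other neighbours.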

Additional observations from a re-analysis of the deposited data

Results flagged for a closer look

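In 6 of the 50 named lincRNAs, 1 KA library lay far from the other 3. The measure was the gap to the nearest of them over the range of the group, above Dixon's 95% limit for 4 samples. For independent normal values that limit would give about 2.5 of 50. These are often low counts from the same libraries, so nothing is read from the difference. KA 4 was that library in AC165961.3, with a ratio of 1, since its 1.04 normalized reads stand for a single read where the other KA libraries had none. KA 4 was also the one in Gm10782 (29.1 where the other KA libraries held 0 to 3.13, ratio 0.892) and in Ftx (105 where the others held 94 to 95.8, ratio 0.837). KA 3 was the one in Gm13667 (14.6 where the others held 3.38 to 5.19, ratio 0.839), in AC130815.1 (18.8 where the others held 5.63 to 7.27, ratio 0.876) and in Gm26664 (36.6 where the others held 14.6 to 15.6, ratio 0.958). All 6 were lower in KA, and in each the single library lay towards the controls.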

How the results depend on the processing

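With each replicate left out in turn, 45 to 53 lincRNAs rose and 77 to 88 fell, and 12 to 14 genes of the imprinted list were called. Each time 60.1% of lincRNAs were lower and 64.2% went with the nearest listed gene. These are signs of genes selected on all 7 libraries, which leave these shares little room to move. With females alone, 32 rose and 55 fell, and with the earlier run of animals alone, also 2 against 2, 51 and 83; the cause was not tested. Limiting neighbours to 50 kb gave 72.9%, and the nearest annotated gene where it is listed, an alternative chosen after seeing the data, gave 71.7%, each over fewer lincRNAs. Without a filter, or by the authors' deposited adjusted p-values, 77 were higher and 116 lower. The sample numbers are not said to pair the mice. Deviations of same-numbered mice correlated at -0.194, 0.133 and -0.0968, which cannot show whether a pairing existed. With the replicate block, by sample number, 52 rose and 83 fell. Only KA 4 has its sample number, so the block takes up that library and it adds nothing to the comparison of the groups. Of 752 comparisons over the 47 named lincRNAs tested, 701 kept the call and direction, 51 lost the call and 0 reversed. Low counts limit most members: intervals and bounds cover counting error only.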
